A study of Arabidopsis thaliana with 6 samples.

Results

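Antisense poly(A) clusters inside protein-coding genes were examined in Arabidopsis thaliana seedlings. A poly(A) cluster is a genomic position, given with its strand, at which sequenced RNA 3' ends gather, and an antisense cluster lies within a gene but on the strand opposite to it. A cluster was taken when it lay on a nuclear chromosome inside a protein-coding gene of the opposite strand, lay over 1000 nt downstream of the end of any gene on its own strand, and had 30 or more reads over the 6 libraries. Of 217870 clusters, 59559 had that many reads, and 246 of these, in 194 host genes, met the rule. Members were thus chosen by their position, strand and total reads over both groups, and not by the difference between the groups. The genes' strands were read from the data, as the reference table used here gives none: 15567 of 27444 protein-coding genes had a strand on which at least 90% of their reads fell, and only these could be hosts. Antisense reads are therefore held under 10% of a host's reads by the way hosts were found. For 4 clusters the hosts share their sense reads with a neighbour, so that limit counts the shared reads too.

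The seedlings were wild type of the Columbia ecotype (Col 0), grown on agar plates under constant white light and then moved to darkness for 48 h. In the Light group they were returned to light for 6 h, and in the Dark group they stayed in the dark for those 6 h, so both groups had been through the dark treatment. Each group has 3 libraries made with 3'READS+, a method that sequences the 3' ends of polyadenylated RNA, from whole seedlings. No label states that the 3 libraries of a group came from separate plantings, and the p-values reflect the variation among these libraries, which may be technical only.

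Plant RNA polymerase II transcribes both strands at many loci, and the cleavage and polyadenylation machinery ends transcripts on either strand. An antisense RNA that ends near the start of its host has crossed the host's promoter-proximal region in the direction opposite to the messenger RNA. Some plant antisense RNAs, such as COOLAIR at the floral repressor gene FLC, are known to take part in silencing the gene they overlap, and most have no known role. A 3' end shows where an RNA ends, not where it starts.

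Depth was 13.4, 13.2 and 13.5 M reads for the Light libraries, against 13.4, 14.5 and 14.5 M for the Dark ones. Levels are given as counts per M reads (CPM), scaled with edgeR's TMM factors. Seed storage genes, marks of another stage, were seen mainly in Light replicate 1: CRA1 had 6.74, 0.20 and 0 CPM in Light, against 0.17, 0.08 and 0 CPM in Dark. CAB3, a light-harvesting protein gene of green tissue, had 195, 178 and 222 CPM in Light and 5.86, 1.96 and 5.62 CPM in Dark. The myrosinase gene PYK10 of root and hypocotyl had 6553, 7042 and 7762 CPM in Light and 1932, 1030 and 1660 CPM in Dark, while the epidermal factor gene ATML1 had 37.1, 32.1 and 36.6 CPM in Light and 49.1, 49.4 and 49.0 CPM in Dark. The part of these shifts in the antisense results was not tested. In whole seedlings, fewer cells of a type and less RNA per cell cannot be told apart.

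The antisense clusters were rare and had few reads. Together they held 17688 reads, 0.0214% of all reads. Their totals over the 6 libraries ran from 30 to 451 reads with a median of 50.5, and 45 of the 246 had at least 100 reads. The minimum cut through a dense range, with 11 members at exactly 30 reads and 9 clusters that met the other criteria at 29 reads. The member closest to a gene end on its own strand lay 1011 nt from it, in IVD, and the farthest of the 279 clusters left out for lying within 1000 nt was 867 nt away. For 79 members no such end lay within 5000 nt. The members were spread over all chromosomes, with 60, 38, 65, 40 and 43 on chromosomes 1 to 5. A further 432 clusters were left out because they lay inside another gene on their own strand. Among the members, 5 lay at a position that more than 1 annotated gene covers, and 3 members had 2 possible hosts.

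Hosts had more sense reads than other genes, which the rule fixes in part, since 30 antisense reads had to stay under 10% of a host's reads. Each read marks an RNA end, so reads were not divided by gene length. The hosts of the 246 members had a median of 3372 sense reads over the 6 libraries, against 994 for all genes with sense reads. The median host was 1948 nt long, against 2419 nt for all genes with a resolved strand. A member's antisense reads came to a median of 1.73% of its host's sense reads, with a range of 0.0165% to 8.26% over the members whose host's sense reads could be separated. The members were distant from the host's own 3' ends: the nearest sense cluster with the read minimum lay a median of 1137.5 nt away, and it lay within 50 nt for 11 members.

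Most antisense 3' ends lay at the front of their host. The median member ended 174.5 nt inside the annotated start, at 10.3% of the host's length. Of the 246 members, 169 lay in the first 20% of the host, 68.7% with a 95% binomial interval of 62.5% to 74.4%. That interval covers counting error only and takes members as independent, though some share a host. A further 29 lay between 20% and 50%, and 48 lay beyond the midpoint. By distance, 89 members ended within 100 nt of the host's start, 139 within 200 nt, 158 within 300 nt and 177 within 500 nt.

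The rule itself makes some positions less likely, because gene ends on the other strand crowd near a host's 3' side. The share of bases that could hold a member was 95.4% in the first 10% of the genes and 50.5% in the last 10%. Per Mb of eligible bases, there were 28.8 members in the first 10% of the genes and 11.9 in the next 10%. In the 8 bins that followed the density was between 1.56 and 3.84 per Mb. Counted by distance, it was 56.8 members per eligible Mb in the first 50 nt, 66.1 from 50 to 100 nt, 34.4 from 100 to 200 nt, 13.1 from 200 to 300 nt and 2.01 from 1000 to 2000 nt. The density thus peaked just inside the annotated start and declined with distance.

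The 7218 eligible antisense clusters with fewer than 30 reads, which the read minimum had left out, lay in 3620 genes and held 23694 reads. They were also densest in the first 10% of the gene, with 0.651 per eligible kb, against 0.181 in the next 10% and 0.103 in the one after it. Of these clusters, 47.8% lay in the first 20% of the gene. They differed from the members toward the gene's end, where their density reached 0.190 per eligible kb in the last 10%.

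**Figure D1:**
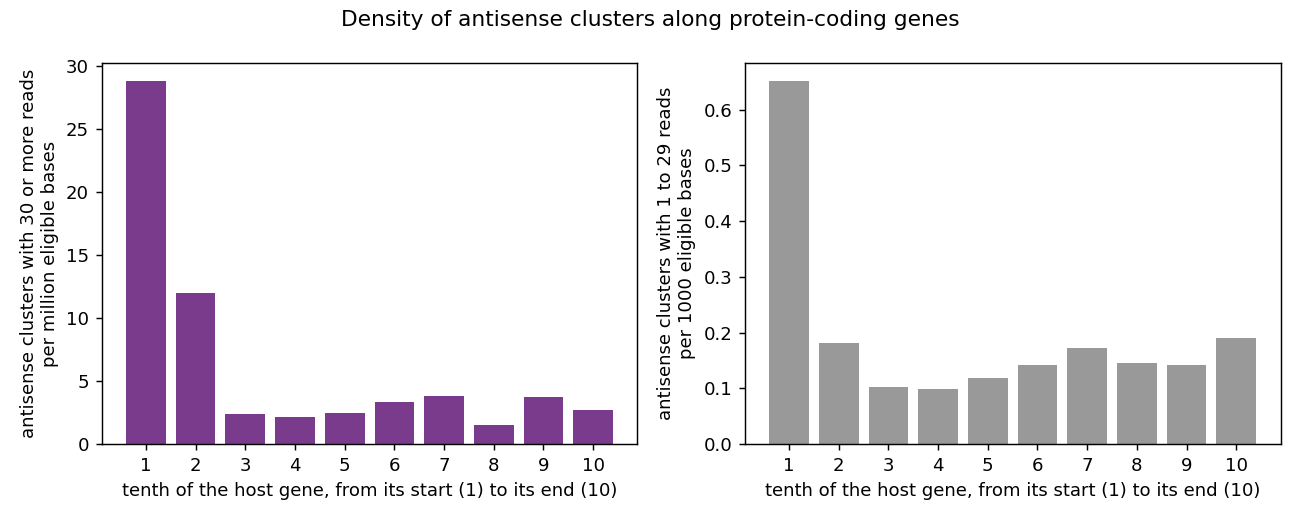
Density of antisense clusters in 10 equal bins of the host gene, from its start (1) to its end (10): left, the 246 clusters with 30 or more reads per eligible Mb; right, the 7218 clusters with 1 to 29 reads per eligible kb. Bars are counts over all 6 libraries pooled, with no error bars, and both sets are densest in the first bin, at 28.8 per Mb on the left and 0.651 per kb on the right.

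More antisense clusters were lower than higher in Light. In the edgeR quasi-likelihood fit of all clusters with no filter on low counts, 13 of the 246 members were higher in Light and 102 were lower at an adjusted p under 0.05, with 131 not called. Over the whole table of 217870 clusters, most with few reads, 9.49% were called higher and 7.85% lower. Of all 59559 clusters with at least 30 reads, 29.8% were called higher in Light and 25.8% lower in the same fit. Among the 41521 clusters whose totals lay within the members' own range of 30 to 451 reads, 27.5% were higher and 19.7% were lower. The median log2 change of the members was -1.21, with quartiles of -2.67 and -0.14, beside a median of 0.12 for all clusters with at least 30 reads and 0.22 for those in the members' range of reads. Every Light library lay above every Dark library in 22 members and below every Dark library in 132, against 34.3% and 31.5% of all clusters with at least 30 reads. Without Light replicate 1, which held the seed storage reads, 11 members were higher and 93 lower.

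The filter on low counts kept 110 of the 246 members. With it, 11 were higher and 66 lower in Light, where 35.2% and 32.9% of all 47978 clusters tested were higher and lower. The 136 others did not reach the filter, so these counts describe only the members with most reads in at least one group. The changes of single clusters below come from this fit unless stated.

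Summed over all members, the antisense signal in Light was 122.8, 127.6 and 133.5 CPM, against 304.5, 331.7 and 321.1 CPM in Dark. The groups did not overlap, with means of 128 ± 5.35 in Light, against 319 ± 13.7 in Dark (SD over 3 libraries), and a ratio of 0.401. Scaled by library totals alone the ratio was 0.528, since the 2 scalings differ by 0.39 on the log2 scale over all clusters. Members were also detected in fewer Light libraries: 229, 232 and 218 of the 246 had a read in the Light libraries, and 242, 241 and 244 in the Dark libraries. The table as a whole went the other way, with 125305, 124530 and 127654 clusters read in Light and 107325, 104440 and 110338 in Dark. Only 59559 of its 217870 clusters had at least 30 reads, so it is no reference matched to the members in depth.

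The hosts' sense reads summed to 12532 ± 167 CPM in Light and 31790 ± 2334 CPM in Dark (SD, n = 3 per group). Taken as a share of those, the antisense signal was 0.974%, 0.991% and 1.04% in Light, against 1.04%, 0.995% and 1.04% in Dark. These shares overlapped between the groups. They describe the sums and not single hosts, since hosts with many sense reads weigh most. AT1G56220 alone had 838 ± 47.8 sense CPM in Light and 6799 ± 232 in Dark (SD, n = 3 per group), while its member held 47 reads.

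The members' change differed with their place in the host, as a description over clusters that share the 6 libraries. In the first 20% of the host, 10 of 169 members were higher and 54 lower in Light, with a median log2 change of -0.91. Between 20% and 50%, 1 of 29 was higher and 15 were lower, with a median of -1.75. Beyond the midpoint, 2 of 48 were higher and 33 lower, with a median of -2.81. In the same fit, 29.8% of all clusters with at least 30 reads were called higher and 25.8% lower. Within the members' range of reads, 27.5% were higher and 19.7% lower. The difference between the position classes was not tested. Their hosts' own sense reads had median log2 changes of -0.62, -1.57 and -0.90 in the same order.

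The summed levels showed the same order. Members in the first 20% of the host summed to 95.9, 97.5 and 104 CPM in Light and 190, 216 and 200 CPM in Dark. Those between 20% and 50% summed to 9.46, 9.96 and 10.98 CPM in Light and 27.9, 32.2 and 32.3 CPM in Dark. Those beyond the midpoint summed to 17.5, 20.2 and 18.7 CPM in Light, and 87.0, 83.3 and 89.2 CPM in Dark. In each class every Light library lay below every Dark library, and the Dark mean was 2.04, 3.04 and 4.61 times the Light mean from the front class to the rear one.

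**Figure D2:**
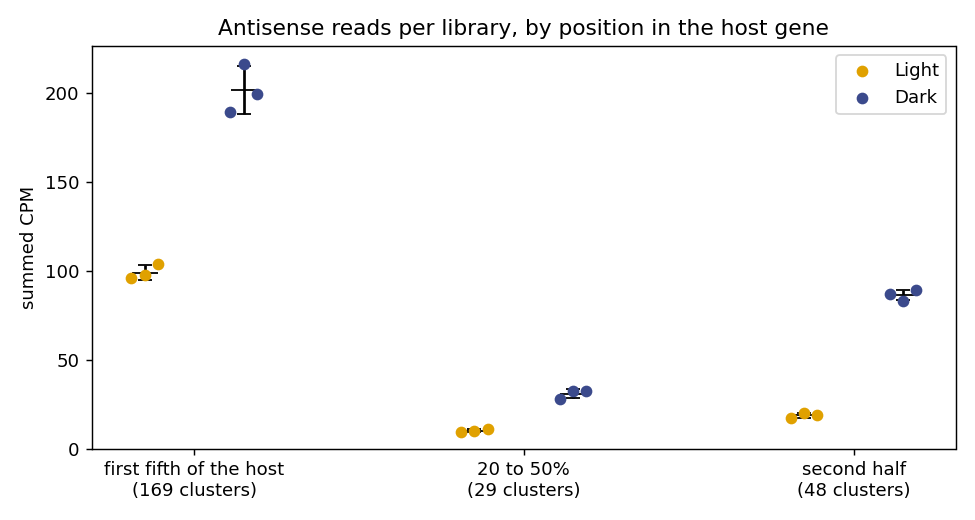
Summed antisense CPM in each library, for members in the first 20% of the host, between 20% and 50%, and beyond the midpoint. Points are libraries, Light left of Dark, and bars are the mean ± SD of 3 libraries; the 2 groups do not overlap in any class, and the gap relative to the Light level is widest beyond the midpoint.

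Of the 13 clusters higher in Light, 10 lay in the first 20% of the host, as did 68.7% of all members. AT3G20300, a gene with no symbol in the table used, had an antisense cluster on the plus strand of chromosome 3 at 7082118, 60 nt inside its start. It had 21, 25 and 23 reads in Light and 1, 3 and 0 reads in Dark. The groups did not overlap, and the log2 change was 3.69 (SE 0.61, adjusted p = 1.7e-05), or 4.91 without Dark replicate 2 and 3.08 without Dark replicate 3. Its host's sense reads had a log2 change of 0.12 (adjusted p = 0.60). CYP91A2, a cytochrome P450 gene, had its cluster 32 nt inside the start (chromosome 4, plus strand, 17598926), with 34, 35 and 26 reads in Light and 1, 2 and 4 in Dark. A second annotated gene also covers the position of this cluster. All Light libraries again lay far above all Dark libraries, with a log2 change of 3.39 (SE 0.49, adjusted p = 3.6e-06), while the sense reads of CYP91A2 were lower in Light by a log2 change of -0.51 (adjusted p = 0.0038).

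COPT6, a copper transporter gene, had 2 clusters called higher in Light. The larger, 100 nt inside the start (chromosome 2, minus strand, 11512827), had 55, 71 and 84 reads in Light and 12, 15 and 10 reads in Dark. Its lowest Light library was far above its highest Dark library, with a log2 change of 2.18 (SE 0.30, adjusted p = 1.8e-06). The sense reads of COPT6 had a log2 change of 0.15 and did not pass the test (adjusted p = 0.26). SOS5, which encodes a fasciclin-like arabinogalactan protein of the cell surface, had 31, 25 and 38 antisense reads in Light and 7, 7 and 6 in Dark, 45 nt inside its start (chromosome 3, plus strand, 17138214). Here both strands were higher in Light, antisense by a log2 change of 1.90 (SE 0.39, adjusted p = 0.00019) and sense by 1.81 (SE 0.19, adjusted p = 1.1e-06).

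HSPRO2, IVD, HAL3A and FLA13 also had an antisense cluster called higher in the fit with the filter and sense reads lower in Light. HSPRO2, a gene related to nematode resistance genes, had 11, 11 and 19 antisense reads in Light and 0, 1 and 4 reads in Dark at 111 nt inside its start (chromosome 2, plus strand, 16702225). Its log2 change was 2.64 (SE 0.66, adjusted p = 0.0013), or 4.13 without Dark replicate 3. This stood beside 48.6 ± 3.09 sense CPM in Light and 587 ± 41.6 in Dark (SD, n = 3 per group). IVD encodes isovaleryl-CoA dehydrogenase, an enzyme of leucine breakdown. It had 18, 23 and 40 antisense reads in Light and 11, 6 and 3 in Dark, with a log2 change of 1.68 (SE 0.47, adjusted p = 0.0033).

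The IVD cluster differs from the others in place, 96 nt before the end of its host at 97.3% of the length (chromosome 3, plus strand, 16621548), and it is also the member nearest to a gene end on its own strand. The nearest sense cluster of IVD with at least 30 reads lay 4 nt from it. IVD sense reads were 20.6 ± 2.70 CPM in Light and 393 ± 4.67 in Dark (SD, n = 3 per group), a log2 change of -4.25 (SE 0.13, adjusted p = 2.1e-11). HAL3A, a gene of coenzyme A synthesis, had 12, 10 and 21 reads in Light and 7, 0 and 3 in Dark at 15 nt inside its start (chromosome 3, plus strand, 6168951), a log2 change of 1.75 (SE 0.62, adjusted p = 0.016). The call was lost without Light replicate 3 (log2 1.40), Dark replicate 2 (log2 1.16) or Dark replicate 3 (log2 1.62), and without Dark replicate 1 the log2 change was 2.84. FLA13, another fasciclin-like arabinogalactan protein gene, had 12, 19 and 11 reads in Light and 7, 4 and 4 in Dark, 68 nt inside its start (chromosome 5, minus strand, 17760933). In none of these clusters did the groups overlap, but FLA13 passed with the filter (log2 1.15, adjusted p = 0.039) and not without it (adjusted p = 0.14). Nor did FLA13 pass without Light replicate 1 or 2 or Dark replicate 2 or 3, with log2 changes between 0.87 and 1.28. The sense log2 changes were -1.29 for HAL3A and -1.28 for FLA13.

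Of the 13 members higher in Light without the filter, 3 were in hosts not yet named, which are given here after their values were seen. AT5G60930 had 15, 12 and 4 antisense reads in Light and 0, 0 and 1 in Dark. The beta-oxidation-related gene IBR10 had 9, 18 and 8 in Light and 1, 4 and 0 in Dark, and AT5G40450 had 13, 8 and 8 in Light and 1, 2 and 1 in Dark. All 3 were without overlap between the groups, and AT5G60930 was, with SOS5, a host whose sense reads were also higher in Light (log2 2.66). Sense reads were lower in Light in IBR10 (log2 -0.86) and AT5G40450 (log2 -3.24).

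The strongest declines left few or no reads in Light. WRKY22, a transcription factor gene of defence and senescence, had no antisense read in any Light library and 14, 12 and 13 reads in Dark (chromosome 4, plus strand, 523332, 917 nt inside its start). Against a floor of 3 reads over the Light group, with libraries scaled by TMM, it was at least 16.2-fold lower in Light (adjusted p = 2.5e-06), and the 95% counting interval reaches down to 12.5-fold. Its sense reads were lower too, with a log2 change of -2.34 (SE 0.16, adjusted p = 1.9e-08). The other 3 members at 0 in all Light libraries, named because of their values, were in GLTP2, with 15, 10 and 14 Dark reads, CYP71B23, with 15, 13 and 8, and AT4G13530, with 12, 6 and 17. Against the same floor they were at least 16.2-fold, 14.9-fold and 14.5-fold lower in Light, with 95% counting limits of 12.5-fold, 11.5-fold and 11.2-fold. The CYP71B23 cluster lay 1 nt from a sense cluster of its host. No member was at 0 in all Dark libraries.

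GME encodes GDP-mannose epimerase, an enzyme of ascorbate synthesis. Its antisense cluster, past the midpoint of the gene (chromosome 5, plus strand, 10863299), had 0, 7 and 1 reads in Light and 94, 100 and 128 reads in Dark. Every Dark library had more than 10 times the reads of the highest Light library, and the log2 change was -5.57 (SE 0.43, adjusted p = 3.3e-10), or -4.98 without Light replicate 1 and -7.70 without Light replicate 2. The sense reads of GME were lower by much less, at a log2 change of -0.90 (SE 0.12, adjusted p = 1.4e-05). AT5G06570 had 1, 5 and 1 antisense reads in Light and 50, 51 and 45 in Dark, 23 nt inside its start (chromosome 5, plus strand, 2011156). Its antisense log2 change of -4.62 (SE 0.45, adjusted p = 1.2e-08), or -5.73 without Light replicate 2, stood beside a sense log2 change of -3.71 (SE 0.14, adjusted p = 9.7e-11).

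For 5 further clusters the Light group held 1 to 3 reads in all, so the ratio of reads, scaled for library size, is given with its 95% counting interval. AT1G56220 had 1, 0 and 0 reads in Light and 13, 12 and 21 in Dark, a Light over Dark ratio of 0.0175 (0.000433 to 0.102). AMI1, an amidase gene that can form the auxin indole-3-acetic acid, had 1, 0 and 0 in Light and 17, 11 and 12 in Dark, a ratio of 0.0201 (0.000497 to 0.119). AT1G49245 had 2, 1 and 0 in Light and 32, 18 and 51 in Dark, a ratio of 0.0239 (0.00484 to 0.0718). In these hosts the sense reads did not all go one way, with log2 changes of -3.02 for AT1G56220, -2.21 for AMI1 and 0.32 for AT1G49245. AT1G80640 had 3, 0 and 0 antisense reads in Light and 23, 15 and 28 in Dark, and AT2G26730 had 2, 0 and 1 in Light and 30, 15 and 17 in Dark. Without Light replicate 1, these clusters of AT1G56220, AMI1 and AT1G80640 had no read in Light. Other antisense clusters of AT1G56220, below the read minimum, were read in Light. All its eligible antisense reads came to 1, 3 and 8 in Light and 23, 21 and 31 in Dark. On these, its antisense over sense log2 change was 0.04 and not called (adjusted p = 0.998, strand by group test). The hosts of the last pair had more sense reads in Light, with log2 changes of 1.02 (SE 0.15, adjusted p = 3.4e-05) for AT1G80640 and 0.89 (SE 0.12, adjusted p = 1.9e-05) for AT2G26730.

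**Figure D3:**
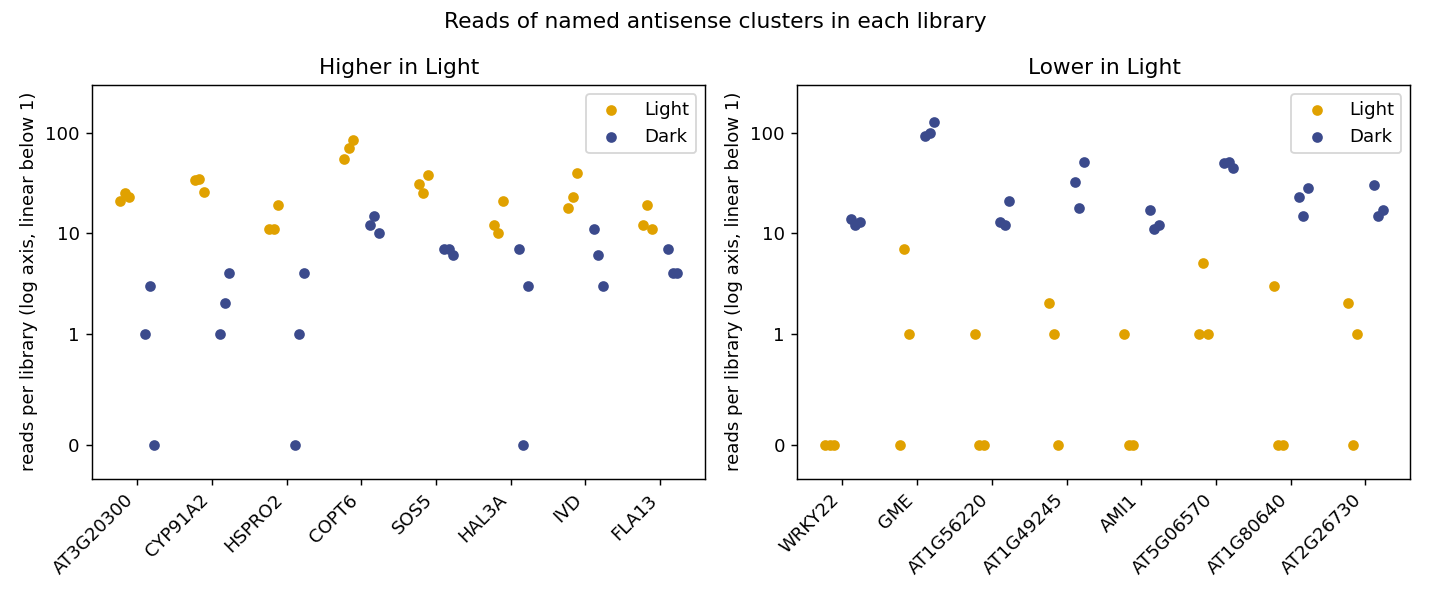
Reads per library of the 8 antisense clusters with the largest rise (left panel) and the 8 with the largest fall (right panel) in Light, among members that passed the filter on low counts and were called, without overlap and with at least 30 reads in the higher group. Points are libraries, Light left of Dark, on a log axis that is linear below 1 read; WRKY22 has 0 reads in all Light libraries and 12 to 14 in Dark.

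The 6 antisense clusters with most reads, those of GME and MEE9 among them, were all called lower in Light in the fit with the filter. The largest, in RABE1b, the gene of plastid translation elongation factor Tu, lay past the midpoint (chromosome 4, minus strand, 10991682) and had 13, 28 and 17 reads in Light and 119, 148 and 126 in Dark. Its log2 change was -3.06 (SE 0.26, adjusted p = 1.2e-09), while the sense reads of RABE1b averaged 470 ± 66.6 CPM in Light and 468 ± 70.0 in Dark (SD, n = 3 per group; adjusted p = 0.96). A second annotated gene also covers the position of the RABE1b cluster. The nearest sense cluster of RABE1b with at least 30 reads lay 22 nt from it. XT1, a xylosyltransferase gene of xyloglucan synthesis, had 14, 10 and 12 antisense reads in Light and 76, 92 and 107 in Dark, and RAV2, a repressor of flowering, had 20, 13 and 43 in Light and 65, 77 and 69 in Dark. Both showed separate groups, with log2 changes of -3.23 (SE 0.27, adjusted p = 1.0e-09) for XT1 and -1.79 (SE 0.31, adjusted p = 2.9e-05) for RAV2. Their sense reads were lower as well, by log2 changes of -2.14 and -1.62. J20, a plastid chaperone gene of the DnaJ type, had 34, 36 and 55 reads in Light and 43, 60 and 56 in Dark. The raw reads of the groups overlapped, but in CPM the highest Light library (3.53) lay just below the lowest Dark library (3.60). The log2 change of -0.66 (SE 0.26, adjusted p = 0.027) did not pass without the filter (adjusted p = 0.096). Nor did it pass without Light replicate 1 or 2 or Dark replicate 2 or 3, with log2 changes between -0.51 and -0.68.

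Members were not independent where a host held several. Of the 194 hosts, 155 had 1 member, 29 had 2, 7 had 3, and MEE9, J20 and UGT73B2 had 4. Members of 1 host lay a median of 75 nt apart, and at most 1523 nt. In 35 of the 39 hosts with several members, all members had log2 changes of the same sign, and the exceptions were AST91, NRP1, PYD4 and UGT73B2. In MEE9, a gene named for arrested embryos in its mutant, the 4 clusters lay 174 to 285 nt inside the start. The first had 27, 15 and 24 reads in Light and 65, 64 and 80 in Dark, and the fourth had 10, 4 and 17 in Light and 54, 49 and 45 in Dark. All MEE9 clusters were lower in Light, by log2 changes between -1.67 and -2.51 without the filter. In NRP1 the clusters went apart: the one 115 nt inside the start had 3, 1 and 3 reads in Light and 7, 14 and 19 in Dark, and the one at 14 nt had 4, 7 and 8 in Light and 2, 7 and 4 in Dark. In UGT73B2, a glycosyltransferase gene acting on flavonoids, the cluster 242 nt inside the start had 13, 14 and 22 reads in Light and 4, 11 and 6 in Dark, and the one at 65 nt had 13, 12 and 8 in Light and 11, 17 and 15 in Dark.

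The hosts' sense reads were also more often lower than higher in Light. Of 190 hosts tested, 49 were higher, 111 lower and 30 not called, beside 37.4% higher and 35.7% lower, 73.2% in either direction, among all 14354 genes tested. The median log2 change of the hosts was -0.74, against 0.04 for all genes tested. Of the 102 members lower in Light, 66 lay in hosts whose sense reads were lower, 21 in hosts whose sense reads were higher, 12 in hosts not called and 3 in hosts not tested. Of the 13 members higher in Light, 8 lay in hosts with lower sense reads, 2 in hosts with higher sense reads and 3 in hosts not called. Of the 131 not called, 72 lay in hosts with lower and 31 in hosts with higher sense reads.

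The size of the antisense change followed the size of the sense change only loosely. Over the 242 members whose host was tested, Pearson's r between the 2 log2 changes was 0.18 and Spearman's rho 0.17, as a description across clusters that share libraries and scaling. The signs were the same in 159 and opposite in 83. With the largest member of each host alone, r was 0.20 over 190 hosts.

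**Figure D4:**
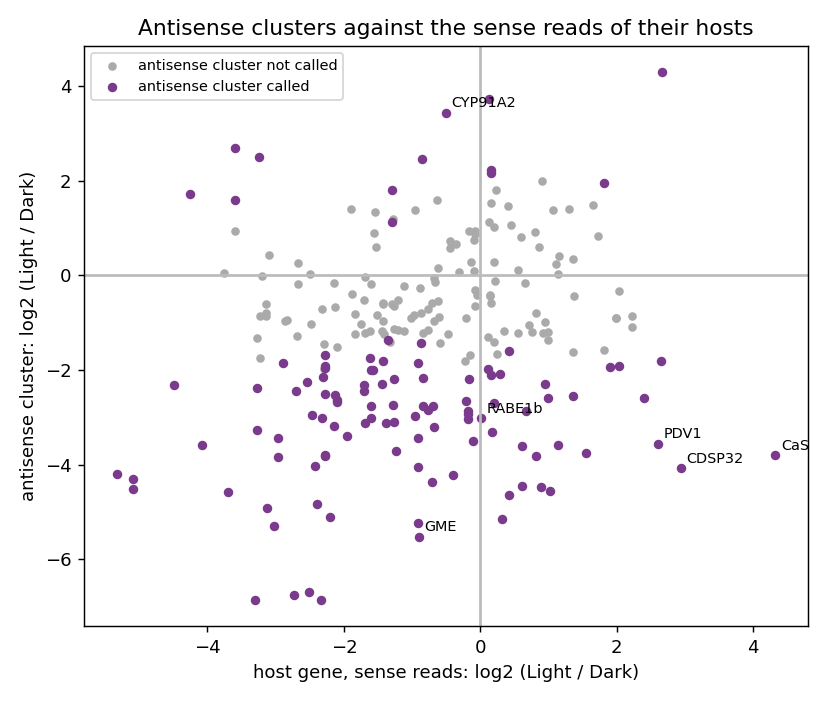
Each antisense cluster's log2 change of Light over Dark (vertical axis, fit without the filter) against that of its host's sense reads (horizontal axis), for the 242 members whose host was tested. Purple points were called at an adjusted p under 0.05 and grey points were not; called points below 0 lie both left and right of the vertical line, and r is 0.18.

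Whether antisense and sense reads of a host changed by different amounts was tested with a strand by group term, on the 2 strands of the same libraries. This test used all eligible antisense reads of a host, those below the read minimum included, and not the member clusters alone. Of 149 hosts tested, antisense relative to sense was higher in Light in 28, lower in 57 and not called in 64. The 64 include 3 hosts, PP2-A10, ACS12 and AT1G60990, with too few separable sense reads for the sense test. In those hosts the ratio could hardly be judged. Of all 167 genes in that test, 18% were higher and 39.5% lower, but the 149 hosts are among them. Genes entered the test by the filter on low counts of their antisense reads, so these shares are no separate reference. Since the sense reads are part of the ratio, the hosts are split by them: of the 28 higher, 25 had sense reads lower in Light. Of the 57 lower, 25 had sense reads higher in Light, 22 had them lower and 10 were not called.

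The 3 hosts with the largest falls of antisense relative to sense were CaS, PDV1 and CDSP32, in each of which the sense reads were higher in Light. CaS, the thylakoid calcium-sensing receptor gene, had 5, 1 and 5 antisense reads in all in Light and 24, 36 and 31 in Dark, of which its member cluster held 3, 1 and 2 in Light and 12, 32 and 30 in Dark (chromosome 5, plus strand, 7737139). Its sense reads were 42.2 ± 3.16 CPM in Light, against 2.10 ± 0.73 in Dark (SD, n = 3 for each). The strands thus went apart, with an antisense over sense log2 change of -7.71 (SE 0.53, adjusted p = 2.2e-40). CDSP32, a plastid thioredoxin-like protein gene, had 7, 5 and 6 antisense reads in all in Light and 55, 75 and 73 in Dark. Its member cluster, 64 nt inside its start (chromosome 1, plus strand, 28549522), held 5, 2 and 5 of these in Light and 47, 62 and 65 in Dark. Its sense reads were 183 ± 13.0 CPM in Light and 23.9 ± 0.86 in Dark (SD, n = 3 per group), and its antisense over sense log2 change was -6.77 (SE 0.40, adjusted p = 1.9e-51).

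PDV1, a plastid division gene, had 3, 0 and 0 antisense reads in all in Light and 18, 17 and 13 in Dark, of which its member cluster (chromosome 5, minus strand, 21608379) held 3, 0 and 0 in Light and 10, 14 and 9 in Dark. Its sense reads were higher in Light by a log2 change of 2.61 (SE 0.19, adjusted p = 2.8e-08), and with 3 reads in the Light group the cluster's ratio of Light over Dark was 0.0731 (0.0143 to 0.233). At the other end, antisense relative to sense was higher in Light by a log2 change of 5.72 in IVD (SE 0.40, adjusted p = 5.2e-39), 5.22 in HSPRO2 (SE 0.38, adjusted p = 1.5e-36) and 3.90 in CYP91A2 (SE 0.54, adjusted p = 1.2e-11). In RABE1b, whose sense reads did not pass the test, it was lower by a log2 change of -3.24 (SE 0.35, adjusted p = 4.6e-18).

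Of all genes with a resolved strand, 1.25% were hosts, so lists of this size hold too few genes to stand apart from that share. The strand was resolved for 16 of 21 clock and flowering genes, and 1 of these, CDF3, held a member. None of the 14 photoreceptor and light signalling genes, all resolved, and none of the 14 resolved of 15 photosynthesis and chlorophyll genes did. Of the 9 resolved of 10 dark and starvation genes, IVD did. CDF3, a cycling DOF factor gene of flowering time, had 13, 10 and 6 antisense reads in Light and 2, 2 and 12 in Dark. In raw reads the third Dark library lay among the Light values. In CPM, at 0.937, it lay above every Light library (0.842, 0.668 and 0.385). The change was not called (log2 0.54, SE 0.59, adjusted p = 0.42). Without Dark replicate 3 it was called higher in Light, with a log2 change of 1.84. The sense reads of CDF3 were higher in Light by a log2 change of 0.85 (SE 0.12, adjusted p = 2.2e-05).

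Loci with antisense RNAs known from the literature added no member. FLC had too few reads for its strand to be resolved, and the strand of CBF1 and CDF5 was ambiguous. DOG1, the seed dormancy gene, had 4 eligible antisense reads in Light and 29 in Dark, spread below the minimum, beside 5.05 ± 0.22 sense CPM in Light and 32.9 ± 2.16 in Dark (SD, n = 3 per group). MAF4, a relative of FLC, had 4 antisense reads in Light and 8 in Dark.

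Genes that process or remove antisense and unstable RNAs did not move one way. Of 27 listed, 24 were tested, with 7 higher in Light, 10 lower and 7 not called, and a median log2 change of -0.11. Over all genes tested, 37.4% were higher and 35.7% lower, so the list's counts lie near those shares. Of its members, the exosome subunit gene RRP4 was higher by a log2 change of 1.62 (adjusted p = 2.5e-06) and the RNA-dependent RNA polymerase gene RDR6 by 1.14 (adjusted p = 8.8e-06). The nuclear exonuclease gene XRN3 was lower, with a log2 change of -1.76 (adjusted p = 3.4e-07). The genes of the RNA-binding proteins FCA and FPA, which promote 3' end formation of antisense RNA at FLC, were lower by log2 changes of -2.64 (adjusted p = 1.2e-09) and -1.22 (adjusted p = 2.0e-06). Other listed genes did not go with them: FY was higher by a log2 change of 0.67 (adjusted p = 0.027). CSTF64, CSTF77, FLD and PCFS4 were not called.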

How the data were processed

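The deposited table gives raw read counts per poly(A) cluster, with chromosome, strand and position, for 3 Light and 3 Dark libraries of 13.2 to 14.5 M reads. Per the submitters' processing notes, Bowtie2 and the TAIR10 genome were used. Read filters and the clustering distance were not found in the labels.

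The members and gene lists were chosen with earlier results of these data known. Genes came from a RefSeq table of assembly TAIR10.1, which gives no strand. No coordinates of that table are printed, and distances within a host assume that the nuclear sequence is the same in both. In 53.3% of 15469 genes with sense reads the main sense site lay within 100 nt of the annotated end. A gene's strand was taken where its end window, the whole gene, and the gene without positions shared with another gene each had at least 20 reads, with at least 90% on 1 strand. Of the other genes, 9070 had few reads and 2807 were ambiguous, and these counted as lying on both strands.

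Counts of all clusters were fitted with edgeR 4.0.16 in R 4.3.3 (TMM, quasi-likelihood test, Light minus Dark, Benjamini-Hochberg over all clusters tested, threshold 0.05), with its filter on low counts (minimum count 10, minimum total 15) and without. Sense reads were summed over each gene and up to 200 nt beyond it and fitted alike, over all genes. Antisense over sense was fitted with the library as a block, on all eligible antisense reads of a host. The steps were tested on simulated data. Named are the 8 largest rises and 8 largest falls among members called in the fit with the filter, without overlap and with at least 30 reads in the higher group, 1 cluster per host, the 6 members with most reads, the 3 largest shifts of antisense over sense each way, and members in listed genes. DESeq2 1.42.0, library totals, other distances, read minimums and strand shares, a replicate block and single replicates left out were tried as alternatives. No sequence is shown.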

Additional observations from a re-analysis of the deposited data

How the results depend on the processing

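Falls outnumbered rises among members under every alternative run, while the counts moved with how members and strands were defined. With the filter on low counts, 11 of 110 members were higher in Light and 66 lower, beside 35.2% and 32.9% of all clusters tested. Without it, 13 of 246 were higher and 102 lower, beside 29.8% and 25.8% of all clusters with at least 30 reads. For the alternatives below, the numbers tested are not given, so their counts cannot be set beside such shares. With members over 2000 nt from a gene end, 5 were higher and 46 lower. With clusters inside another gene on their own strand kept, 113 were higher and 133 lower, the alternative with the most even split. With alternatives chosen after seeing the data, strands from end windows alone gave 26 higher and 107 lower, a strand share of 80% gave 24 and 106, and one of 95% gave 5 and 42. Strands from end windows alone put 51.5% of members in the first 20% of the host, against 68.7%. The summed Light over Dark ratio of 0.401 was 0.528 by library totals and 0.430 without the 10 members with most reads. DESeq2 called 9 members higher and 60 lower, and library totals 16 and 58.

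Leaving out single replicates gave 9 to 13 members higher and 75 to 96 lower, where the filter needs fewer libraries and keeps more members. It gave 44 to 51 hosts higher and 108 to 112 lower in sense reads, and 25 to 31 higher and 50 to 60 lower for antisense over sense. Replicate numbers shared by the groups did not pair the libraries (correlations of 0.03, -0.003 and 0.05). With the replicate number as a block, 10 members were higher and 65 lower, and 48 hosts were higher and 111 lower in sense reads. Of 275 values of named clusters under alternatives, 253 kept their call, 21 no longer passed, in HSPRO2 (the cluster 296 nt inside the start), HAL3A, J20 and FLA13, 1 newly passed, in CDF3, and none changed sign. The cause of these shifts was not tested. The median member had 0.389, 0.401 and 0.385 CPM in Light and 0.837, 0.900 and 0.859 in Dark.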
